A study of Mus musculus with 8 samples.

Results

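Chemokines are small secreted proteins that steer the movement of leukocytes and other cells, and most chemokine receptors are G protein-coupled receptors on the cells that respond. Atypical receptors bind the same ligands without the usual G protein signal and take them up or carry them across cells. In the mammary gland, macrophages, eosinophils and other leukocytes lie around the epithelium and are known to take part in ductal and alveolar growth, and epithelial cells, stromal cells and leukocytes can all make chemokines. The genes described here are the protein-coding genes whose symbols mark them as chemokine ligands (Ccl, Cxcl, Cx3cl1, Xcl1), as conventional receptors (Ccr, Cxcr, Cx3cr1, Xcr1) or as atypical receptors (Ackr1 to Ackr4). They were chosen by symbol alone and comprised 66 of 55933 annotated genes, 44 ligands and 22 receptors, under 61 distinct symbols.

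RNA-seq was performed on mammary epithelium from female C57BL/6 mice at pregnancy day 14.5, with 4 control and 4 cKO mice and 1 library per mouse. The cKO mice carried K14-rtTA, teto-Cre and floxed Bmpr1a alleles and received doxycycline, so that Cre was driven in cells with an active keratin 14 promoter, the myoepithelial layer. The controls were littermates labelled WT, whose genotype at these transgenes and doxycycline treatment are not given in the sources used here; the age of these mice in weeks is not given for the RNA-seq either. The cells came from minced glands digested with collagenase and hyaluronidase and freed of red blood cells, and no sort is described for this step. RNA was extracted after the digestion, and whether the digestion changed the levels of chemokine genes was not tested. Expression is given as FPKM, fragments scaled to gene length and to a size factor for each library, which compares levels per length. Reads on genes, recovered from FPKM and gene length, numbered from 16123108 to 19896988 per library.

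Bmpr1a, the type I BMP receptor gene targeted in the cKO mice, was measured in every library first. Its level was 10.6, 11.7, 8.74 and 9.52 FPKM in control replicates 1 to 4 and 12.01, 12.03, 10.2 and 10.4 FPKM in cKO replicates 1 to 4. The groups overlapped and no library labelled cKO was low (mean difference 1.01 FPKM, exact two-sided permutation test, p = 0.257). The deposited value covers the whole gene and not the floxed part, so it does not check the deletion, and the text below speaks of libraries labelled cKO.

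The tissue label was checked with marker genes. Luminal Krt8 averaged 1771 FPKM, Krt18 1312 FPKM and Epcam 1013 FPKM over the 8 libraries, and myoepithelial Krt14 averaged 665 FPKM and Krt5 127 FPKM. RNA of other cells was present as well. The pan-leukocyte marker Ptprc averaged 1.36 FPKM, the macrophage marker Adgre1 3.50 FPKM and the endothelial marker Pecam1 22.0 FPKM. In such bulk samples, fewer cells of a type and less RNA per cell cannot be told apart.

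Ligand genes were more abundant than receptor genes. Of the 66 genes, 40 had a mean of at least 0.5 FPKM and were tested, 31 ligands and 9 receptors. Summed over all 44 ligands, the level was 2448, 2584, 2584 and 2929 FPKM in control replicates 1 to 4 and 2357, 2188, 1958 and 2267 FPKM in the libraries labelled cKO. Every library labelled cKO was below every control library in this sum, which was not tested. The 22 receptors summed to between 75.6 and 109 FPKM per library. Of the ligands 17 averaged at least 10 FPKM, and of the receptors 3 did.

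Differences between the groups were tested with limma on log2(FPKM + 1) over 15143 genes. Of the 40 chemokine and receptor genes tested, 13 had an unadjusted p under 0.05, against 16.4% of all genes tested. In 12 of these the level was lower in the libraries labelled cKO, against 7.53% of all genes, and in 1 it was higher, against 8.85%. After Benjamini-Hochberg adjustment over all genes, 2 of the 40 passed 0.05, both lower, against 0.892% of all genes (0.304% lower and 0.588% higher). In 7 of the 40 the 2 groups did not overlap, all 7 lower in the libraries labelled cKO, against 10.7% of all genes (4.6% lower and 6.1% higher). The median log2 fold change of the 40 was -0.15, and 30 of the 40 lay below 0, against 7540 of all 15143 genes. Genes that are low in the libraries labelled cKO can pass the mean level through the control libraries alone, so these counts describe the tested genes and not all 66. Ccl24 and Cxcr5, both counted as lower, passed in this way, with means of 0.968 and 0.903 FPKM in the control libraries and 0.288 and 0.149 FPKM in those labelled cKO. At a mean of at least 1 FPKM, which leaves out both, 11 of 34 genes had an unadjusted p under 0.05, 10 lower and 1 higher, against 17.4% of all genes tested at that level. Cxcr6, among these lower genes, passed that level only through the control libraries, as its mean in those labelled cKO was under 1 FPKM. This count is therefore not free of such genes either. The adjusted calls depended on the libraries used: none of the 40 passed when any 1 library was left out, whereas 11 to 16 of them had an unadjusted p under 0.05, 10 to 15 of these lower. With each library scaled to the same sum (TPM), the share of higher genes among all calls was 32.3% in place of 54%, and the same 13 chemokine and receptor genes were called, 12 lower and 1 higher.

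**Figure D1:**
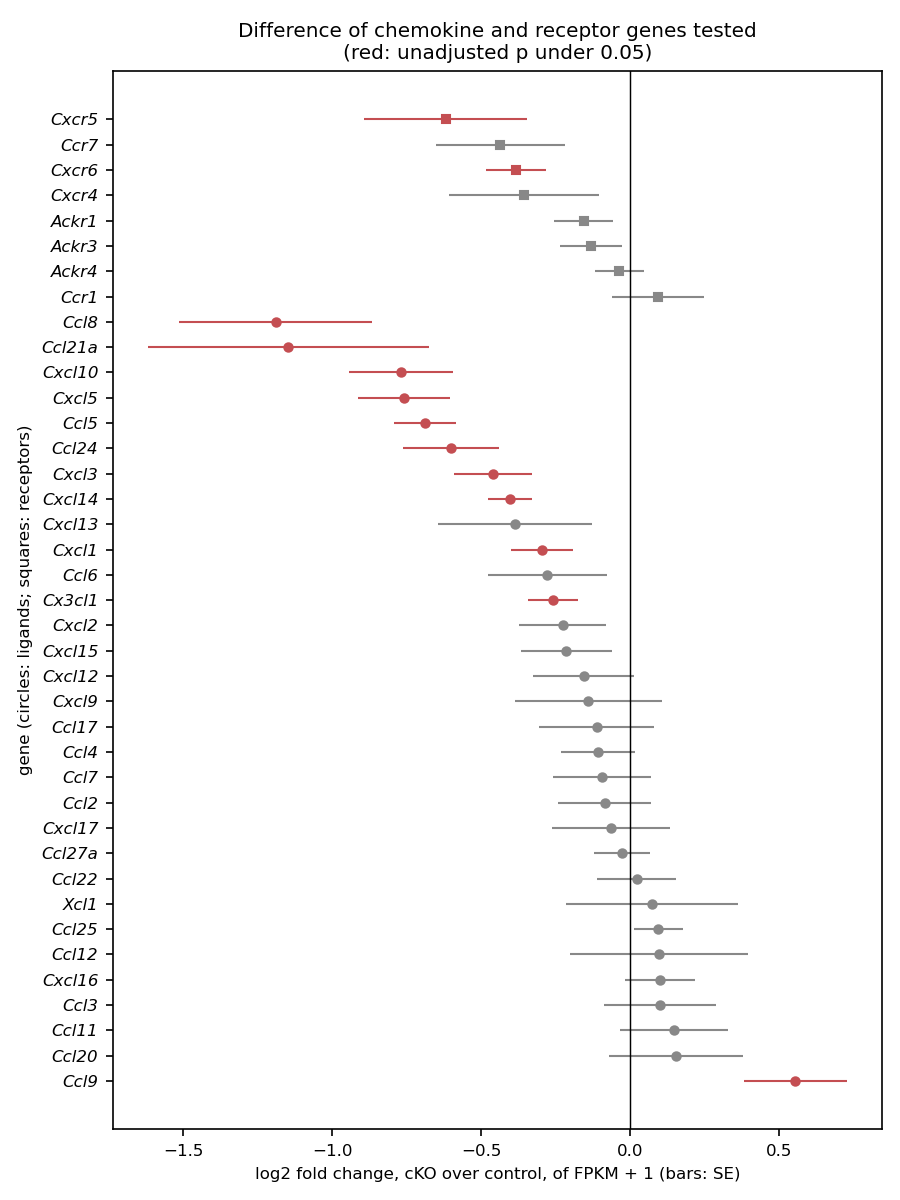
Log2 fold change of log2(FPKM + 1), cKO over control, for ligands (circles) and receptors (squares) tested with 4 libraries per group, with bars for the standard error and red for an unadjusted limma p under 0.05. Of the 13 red genes 12 lie below 0 and Ccl9 lies above it.

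Among the CXC ligands, 5 of 12 tested genes were lower in the libraries labelled cKO and none was higher, 41.7% called against 16.4% of all genes tested. Cxcl1, Cxcl2, Cxcl3, Cxcl5 and Cxcl15 belong to the neutrophil-attracting ligands, most of which act through Cxcr2, and they lie together on chromosome 5 between positions 90759360 and 90905938 (GRCm38). Cxcl1 was the most abundant chemokine gene. It measured 600, 670, 727 and 782 FPKM in control replicates 1 to 4 and 616, 521, 570 and 549 FPKM in the libraries labelled cKO. The groups overlapped through control replicate 1 and cKO replicate 1, and the log2 fold change was -0.30 ± 0.10 (SE, limma adjusted p = 0.211, exact permutation p = 0.0571). Its unadjusted limma p was over 0.05 without control replicate 3, control replicate 4 or cKO replicate 2, with log2 fold changes of -0.27, -0.24 and -0.26.

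Cxcl5 measured 79.5, 111, 86.6 and 105 FPKM in the control libraries and 50.6, 73.8, 52.9 and 47.8 FPKM in those labelled cKO. All libraries labelled cKO were below all control libraries, with a log2 fold change of -0.76 ± 0.15 (SE, limma adjusted p = 0.0624, exact permutation p = 0.0286, the smallest that 4 against 4 libraries can give). Cxcl3 measured 7.47, 11.3, 10.9 and 12.4 FPKM in the control libraries and 7.33, 7.14, 7.56 and 6.96 FPKM in those labelled cKO. Control replicate 1 lay within the cKO range, and the log2 fold change was -0.46 ± 0.13 (SE, limma adjusted p = 0.135, exact permutation p = 0.0571). Cxcl2 measured 241, 228, 232 and 320 FPKM in the control libraries and 246, 192, 184 and 250 FPKM in those labelled cKO. Its groups overlapped and it was not called (log2 fold change -0.23 ± 0.15, SE, limma adjusted p = 0.488, exact permutation p = 0.286), and without control replicate 4, its highest library, the log2 fold change was -0.11. With a block for the replicate number, Cxcl2 was called (unadjusted p = 0.0279 by limma and 0.0128 by limma-voom). Cxcr2 itself was under the level tested, at 0.141 to 0.492 FPKM or 8 to 26 reads per library.

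Cxcl10 and Cxcl9 are ligands of Cxcr3 that interferons induce, and they attract activated T and NK cells. Cxcl10 measured 224, 178, 202 and 161 FPKM in the control libraries and 134, 139, 92.9 and 87.1 FPKM in those labelled cKO. The groups did not overlap and the log2 fold change was -0.77 ± 0.17 (SE, limma adjusted p = 0.081, exact permutation p = 0.0286). Its neighbour Cxcl9 was not called, with 18.2 ± 5.03 FPKM in the control libraries and 16.6 ± 5.23 FPKM in those labelled cKO (SD, n = 4 each). Cxcl14, a chemokine made by many epithelia, measured 136, 138, 151 and 146 FPKM in the control libraries and 108, 97.5, 117 and 109 FPKM in those labelled cKO. Its groups did not overlap, and it was 1 of the 2 genes that passed the adjustment (log2 fold change -0.40 ± 0.07, SE, limma adjusted p = 0.0482, exact permutation p = 0.0286). The other CXC ligands tested, Cxcl12, Cxcl13, Cxcl15, Cxcl16 and Cxcl17, were not called.

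Of 17 CC ligands tested, 4 were lower and 1 was higher, 29.4% called against 16.4% of all genes tested. Ccl5, which attracts T cells, monocytes and eosinophils through receptors such as Ccr1 and Ccr3, measured 160, 138, 180 and 142 FPKM in the control libraries and 91.0, 103, 84.8 and 103 FPKM in those labelled cKO. The groups did not overlap, and Ccl5 had the lowest p of the 40 genes (log2 fold change -0.69 ± 0.11, SE, limma adjusted p = 0.0316, exact permutation p = 0.0286). Over the 17 alternative settings its adjusted limma p ran from 0.0114 to 0.089, and that of Cxcl14 from 0.0104 to 0.129. Ccl8, a monocyte-attracting ligand, measured 28.5, 12.3, 15.4 and 17.6 FPKM in the control libraries and 8.92, 8.54, 3.33 and 9.80 FPKM in those labelled cKO. Control replicate 1 was the highest and cKO replicate 3 the lowest, and the groups did not overlap (log2 fold change -1.19 ± 0.32, SE, limma adjusted p = 0.128, exact permutation p = 0.0286).

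Ccl24, an eosinophil-attracting ligand of Ccr3, was low throughout, at 0.980, 1.11, 0.461 and 1.32 FPKM in the control libraries and 0.520, 0.328, 0.0973 and 0.208 FPKM in those labelled cKO. Control replicate 3 lay within the cKO range (log2 fold change -0.60 ± 0.16, SE, limma adjusted p = 0.123, exact permutation p = 0.0571). With a pseudocount of 0.1 in place of 1, the log2 fold change of Ccl24 was -1.50, and by limma-voom on recovered reads -1.77. Ccl11, another eosinophil-attracting ligand, was not called, at 46.8 ± 9.46 FPKM in the control libraries and 52.0 ± 11.1 FPKM in those labelled cKO (SD, n = 4 each). Ccl9, a ligand of Ccr1, was the only tested member called higher. It measured 6.20, 5.31, 6.37 and 7.10 FPKM in the control libraries and 7.08, 11.3, 7.98 and 13.1 FPKM in those labelled cKO. Only cKO replicate 1 lay within the control range (log2 fold change 0.55 ± 0.17, SE, limma adjusted p = 0.168, exact permutation p = 0.0571).

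Ccl2 and Ccl7, abundant CC ligands that lie side by side on chromosome 11, differed by less than the spread between replicates. Ccl2, the main ligand of Ccr2 on monocytes, measured 365, 494, 350 and 545 FPKM in the control libraries and 450, 398, 354 and 427 FPKM in those labelled cKO. The groups overlapped in full (log2 fold change -0.09 ± 0.16, SE, limma adjusted p = 0.8291, exact permutation p = 0.571). Ccl7, another ligand of Ccr2, measured 148, 192, 158 and 231 FPKM in the control libraries and 161, 200, 134 and 183 FPKM in those labelled cKO. Its log2 fold change was -0.10 ± 0.17 (SE, limma adjusted p = 0.821, exact permutation p = 0.629). The log2 fold change was above 0 for both genes without control replicate 4, at 0.03, and for Ccl7 without cKO replicate 3, at 0.01. The members not given in full were 19 tested genes with means of up to 123 FPKM, Ccl4 being the highest. Their log2 fold changes ran from -0.39 to 0.15, and none had an unadjusted limma p under 0.05. Among them were Ccl3, Ccl4, Ccl6, Ccl11, Ccl12, Ccl17, Ccl20, Ccl22, Ccl25, Ccl27a, Cxcl9, Cxcl12, Cxcl13, Cxcl15, Cxcl16, Cxcl17, Xcl1 and Ackr4.

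Cx3cl1, a membrane-anchored ligand that is shed and attracts Cx3cr1-bearing monocytes and T cells, measured 71.7, 73.1, 71.5 and 67.6 FPKM in the control libraries and 62.6, 63.8, 50.3 and 60.7 FPKM in those labelled cKO. The groups did not overlap (log2 fold change -0.26 ± 0.08, SE, limma adjusted p = 0.173, exact permutation p = 0.0286). Its receptor Cx3cr1 was under the level tested, at 0.142 to 0.490 FPKM.

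**Figure D2:**
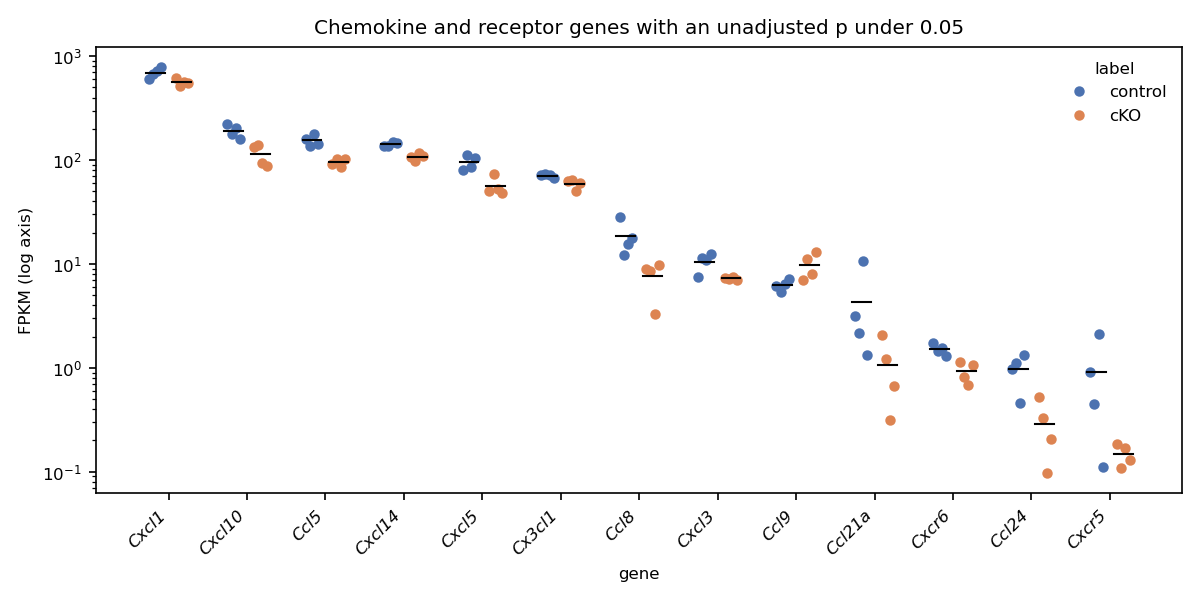
FPKM on a log axis of the 13 chemokine and receptor genes with an unadjusted limma p under 0.05, with 1 point per library, blue for control and orange for cKO (4 libraries each), and a line at each group's mean. The cKO points of Ccl5, Cxcl5, Cxcl10 and Cxcl14 all lie below the control points, and those of Ccl9 lie above or at the top of them.

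Among the receptors, 2 of 9 tested genes were lower in the libraries labelled cKO, 22.2% called, near the 16.4% of all genes tested. They were Cxcr6 and Cxcr5, the latter above the level tested only through the control libraries. Cxcr6, the receptor of Cxcl16 on T and NK cells, measured 1.73, 1.44, 1.55 and 1.297 FPKM in the control libraries and 1.13, 0.816, 0.685 and 1.06 FPKM in those labelled cKO. The groups did not overlap (log2 fold change -0.38 ± 0.10, SE, limma adjusted p = 0.118, exact permutation p = 0.0286). The log2 fold change of Cxcr6 was -0.67 with a pseudocount of 0.1 in place of 1 and -0.69 by limma-voom on recovered reads. Its ligand Cxcl16 was not called, at 53.2 ± 2.70 FPKM in the control libraries and 57.7 ± 10.6 FPKM in those labelled cKO (SD, n = 4 each). The atypical receptors Ackr1, which carries chemokines across venular endothelium, and Ackr3, which takes up Cxcl12, were the most abundant receptor genes. Ackr1 measured 44.7, 43.3, 44.3 and 49.7 FPKM in the control libraries and 45.1, 45.1, 39.8 and 33.8 FPKM in those labelled cKO (log2 fold change -0.16 ± 0.10, SE, limma adjusted p = 0.482, exact permutation p = 0.286; -0.07 without cKO replicate 4).

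Ackr3 measured 18.0, 16.6, 15.8 and 20.8 FPKM in the control libraries and 18.3, 16.0, 13.8 and 16.6 FPKM in those labelled cKO (log2 fold change -0.13 ± 0.11, SE, limma adjusted p = 0.586, exact permutation p = 0.371; -0.06 without control replicate 4 or cKO replicate 3). The groups overlapped for both atypical receptors. Cxcr4, the conventional receptor of Cxcl12, measured 13.8, 6.99, 13.6 and 7.84 FPKM in the control libraries and 10.5, 6.71, 5.40 and 9.08 FPKM in those labelled cKO. Control replicates 1 and 3 were the highest (log2 fold change -0.36 ± 0.25, SE, limma adjusted p = 0.534, exact permutation p = 0.257; -0.22 without control replicate 1 or 3 and -0.21 without cKO replicate 3). Ccr1, a receptor of Ccl3, Ccl5 and Ccl9 on myeloid cells, measured 2.71, 2.10, 2.06 and 2.54 FPKM in the control libraries and 2.41, 3.81, 1.80 and 2.51 FPKM in those labelled cKO. It was not called (log2 fold change 0.09 ± 0.16, SE, limma adjusted p = 0.813, exact permutation p = 0.657), and its fold change was -0.05 without cKO replicate 2.

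Ccr7, Cxcr5 and Ccl21a were highest in control replicate 3. Ccr7, which guides dendritic cells and T cells to lymph nodes, measured 21.3, 14.3, 25.5 and 12.7 FPKM in the control libraries and 11.99, 16.9, 11.2 and 11.98 FPKM in those labelled cKO (log2 fold change -0.44 ± 0.22, SE, limma adjusted p = 0.358, exact permutation p = 0.171). Its unadjusted limma p was under 0.05 without control replicate 2, control replicate 4 or cKO replicate 2, with log2 fold changes of -0.53, -0.59 and -0.56, whereas without control replicate 3 it was over 0.05 and the log2 fold change was -0.27. Cxcr5, which guides B cells to follicles, measured 0.918, 0.450, 2.13 and 0.112 FPKM in the control libraries and 0.187, 0.109, 0.1701 and 0.129 FPKM in those labelled cKO. Control replicate 4 lay within the cKO range (log2 fold change -0.62 ± 0.27, SE, limma adjusted p = 0.304, exact permutation p = 0.114). The log2 fold change of Cxcr5 was -1.54 with a pseudocount of 0.1 in place of 1. By limma-voom on recovered reads it was -1.85, and -2.38 with the replicate block as well. Ccl21a, a ligand of Ccr7, measured 3.16, 2.15, 10.7 and 1.33 FPKM in the control libraries and 2.06, 1.21, 0.313 and 0.670 FPKM in those labelled cKO, on a scaffold outside the assembled chromosomes (log2 fold change -1.15 ± 0.47, SE, limma adjusted p = 0.272, exact permutation p = 0.0571). With a pseudocount of 0.1 the log2 fold change of Ccl21a was -1.74, and by limma-voom on recovered reads -1.71.

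The call of Ccl21a was lost without 1 of 5 libraries: its unadjusted limma p was over 0.05 without control replicate 1 or 3 or cKO replicate 2, 3 or 4, with log2 fold changes of -1.17, -0.67, -1.20, -0.95 and -1.07. The unadjusted limma p of Cxcr5 was over 0.05 without any 1 of the cKO libraries (log2 fold changes of -0.64, -0.60, -0.63 and -0.61), without a filter and by limma-voom on recovered reads, and without control replicate 1 or 3 Cxcr5 was under the level tested. It was under 0.05 in 7 of the 14 alternative settings that gave a value. Summed markers of lymphocytes were also highest in control replicate 3. The 6 B and plasma cell markers summed to 19.7, 7.0, 49.6 and 7.73 FPKM in control replicates 1 to 4 and 5.61, 5.25, 3.95 and 6.03 FPKM in the libraries labelled cKO. Cd79a and Cd79b were lower; Jchain, the most abundant, was not called. The 10 T and NK cell markers summed to 23.7, 12.8, 41.7 and 14.0 FPKM in the control libraries and 13.1, 8.72, 10.95 and 15.0 FPKM in those labelled cKO. Trbc2, the most abundant, was lower with Lck and Cd4, 3 of 8 tested, 37.5% against 16.4% of all genes tested; Cd4 was above the level tested only through the control libraries (1.15 against 0.446 FPKM). Control replicate 1 was next to control replicate 3 in both sums and in the 3 chemokine genes, and by Dixon's test for a value far from the others control replicate 3 did not stand apart in any of the 5. The part of these cells in the levels of Ccr7, Cxcr5 and Ccl21a was not tested. Copies of Ccl21, Ccl19 and Ccl27 are nearly identical, so that reads can be split between them and these values are uncertain; exons of Cxcr5 overlap those of Bcl9l on the other strand, and the strand setting of the counting is not given in the sources used here. For the same reason the levels of Ccl25 (Elavl1), Ccl27a (Il11ra1), Ackr4 (Acad11) and Cxcl16 (Zmynd15) are uncertain, each with the gene in parentheses on the other strand. Cxcl10 overlaps Art3 in this way too, with at most 133 reads on Art3 against 3321 to 8726 on Cxcl10. Exons of Ackr1 overlap those of Cadm3 on the same strand, so the level of Ackr1 is also uncertain (at most 274 reads on Cadm3 against 881 to 1310 on Ackr1).

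**Figure D3:**
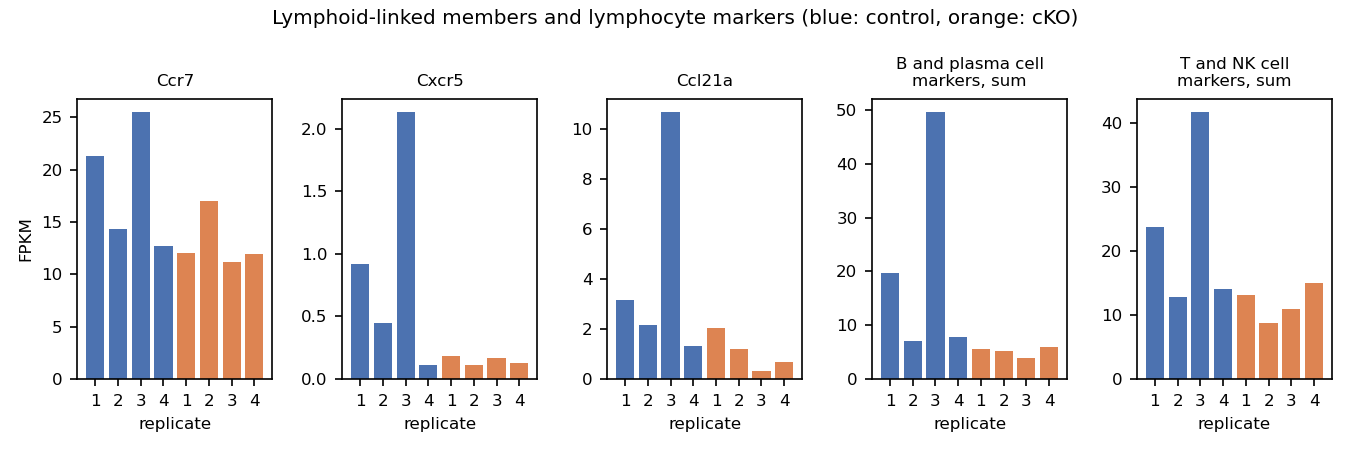
FPKM of Ccr7, Cxcr5 and Ccl21a and the summed FPKM of 6 B and plasma cell markers and 10 T and NK cell markers, with 1 bar per library, blue for control and orange for cKO replicates 1 to 4. Control replicate 3 is the highest bar in all 5 panels, at 25.5, 2.13, 10.7, 49.6 and 41.7 FPKM.

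Under the mean of 0.5 FPKM lay 26 of the 66 genes, 18 with reads and 8 with 0 reads in every library. The 8 were Ccl26 and copies of Ccl19, Ccl21b, Ccl21c and Ccl27. Among the 18 with reads, Xcr1, the receptor of Xcl1 on cross-presenting dendritic cells, had 16 to 25 reads per library, and it was higher in the libraries labelled cKO, at 0.278 to 0.340 FPKM against 0.207 to 0.272 FPKM in the control libraries, so that the groups did not overlap (exact two-sided permutation test, p = 0.0286, not adjusted for the 18 genes compared). By limma without a filter on the level, Xcr1 was not called (limma adjusted p = 0.588). The others, among them Ccr2, Ccr3, Ccr6, Ccr8, Cxcr3 and Ackr2, had at most 62 reads in any library, and no difference in them passed 0.05 in the same test (lowest exact permutation p = 0.0571), which at this depth does not show that they were alike. By limma without a filter, 3 of the 18 had an unadjusted p under 0.05, all lower in the libraries labelled cKO, against 10.3% of all genes with reads. They were Ccr8, Ccl27b and Ccr6, with at most 13 reads in any library (limma adjusted p = 0.270, 0.426 and 0.478, exact permutation p = 0.0571, 0.143 and 0.143), and they and Xcr1 are named after their values were seen.

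The shares called among markers of leukocytes were 37.5% for pan-leukocyte, 50% for macrophage and 50% for dendritic cell markers, against 16.4% of all genes tested. Of 8 pan-leukocyte markers, 3 were lower and none higher, and their sum was 107, 69.1, 122 and 78.8 FPKM in the control libraries and 80.0, 68.7, 46.8 and 83.2 FPKM in those labelled cKO. Tyrobp was the most abundant. Of the 3 lower markers, Cd52 and Laptm5 each kept an unadjusted limma p under 0.05 in 4 of 8 fits without 1 library. Of 10 macrophage markers, 5 were lower, C1qa, C1qb, C1qc and Lyz2 among them. Their sum was 1134, 967, 1124 and 1052 FPKM in the control libraries and 1057, 959, 861 and 1019 FPKM in those labelled cKO. Most of this sum was Cd14, the most abundant, which was not called (means of 729 FPKM in the control libraries and 726 FPKM in those labelled cKO). Of 4 dendritic cell markers tested, Cd209a and Siglech were lower, and the sum of the 6 listed was 8.66 ± 0.935 FPKM in the control libraries and 6.75 ± 1.25 FPKM in those labelled cKO (SD, n = 4 each), with Itgax the most abundant. Whether the lower chemokine genes follow the share of these cells was not tested.

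Of the neutrophil markers tested 75% were called, of the mast cell and eosinophil markers 20% and of the endothelial markers 37.5%, against 16.4% of all genes tested. Of the neutrophil markers 4 were tested. S100a8, the most abundant, was higher and S100a9 and Retnlg were lower, Retnlg being above the level tested only through the control libraries (0.821 against 0.369 FPKM), while Ly6g had at most 1 read in any library. The sum of the 6 neutrophil markers was 177 ± 12.2 FPKM in the control libraries and 209 ± 28.5 FPKM in those labelled cKO (SD, n = 4 each). Of 5 mast cell and eosinophil markers tested, Prg2, an eosinophil granule protein, was lower, with Mcpt4 the most abundant. The sum of the 7 listed was 22.6, 20.97, 24.6 and 61.7 FPKM in the control libraries and 22.6, 14.4, 14.9 and 20.8 FPKM in those labelled cKO, with control replicate 4 far above the others. Of 8 endothelial markers, Vwf, Pecam1 and Emcn were lower, and the sum was 126 ± 7.71 FPKM against 108 ± 14.5 FPKM (SD, n = 4 each), with Cldn5 the most abundant.

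Of the fibroblast markers 12.5% and of the luminal markers 14.3% were called, both under the 16.4% of all genes tested. All 8 fibroblast markers had a log2 fold change below 0 (median -0.40), as did 4 of the 7 luminal markers (median -0.003). Of the myoepithelial markers 30% were called and of the 3 adipocyte markers tested 66.7%. Of 8 fibroblast markers, Fbln1 was lower, with a sum of 671 ± 248 FPKM in the control libraries and 511 ± 179 FPKM in those labelled cKO (SD, n = 4 each) and Col3a1 the most abundant. Of 2 lymphatic endothelial markers tested neither was called, and the sum of the 5 was 3.36 ± 0.682 FPKM against 2.98 ± 0.719 FPKM, with Lyve1 the most abundant. Of 3 adipocyte markers tested, Cfd and Adipoq were higher, Adipoq being above the level tested only through the libraries labelled cKO (0.303 FPKM in the control libraries, 1.25 FPKM in those labelled cKO), and the sum of the 5 was 99.1 ± 18.3 FPKM against 126 ± 17.0 FPKM, with Fabp4 the most abundant. Of 10 myoepithelial markers, Krt14 and Trp63 were lower and Oxtr was higher, with a sum of 2563 ± 433 FPKM against 2411 ± 349 FPKM and Acta2 the most abundant. Of 7 luminal markers, Elf5 was higher, with a sum of 5976 ± 704 FPKM against 5851 ± 916 FPKM and Krt8 the most abundant.

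None of 7 hormone-sensing luminal markers was called by limma at an unadjusted p under 0.05 (sum 38.8 ± 7.30 FPKM against 32.9 ± 2.57 FPKM, SD, n = 4 each), with Areg the most abundant. Of 6 milk genes, 5 were higher, 83.3% against 8.85% of all genes tested, and their sum was 4987 ± 884 FPKM in the control libraries and 11553 ± 3155 FPKM in those labelled cKO, with Csn1s2a the most abundant. Their part in the level of the chemokine genes was not tested. Several marker calls were lost in some of the 8 fits without 1 library: Emcn kept an unadjusted limma p under 0.05 in 2 of them, Lck, Siglech and Pecam1 in 3, Adipoq, Fbln1, Krt14 and S100a8 in 4, Lyz2 in 5, Cd79a and Trbc2 in 6 and C1qb in 7.

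The signal partners of chemokine receptors, 34 genes for G proteins, arrestins, kinases and regulators, showed 4 lower and 1 higher of 32 tested, 15.6% against 16.4% of all genes. Pik3cd, a leukocyte PI3 kinase subunit, measured 3.13 ± 0.807 FPKM in the control libraries and 1.63 ± 0.242 FPKM in those labelled cKO (SD, n = 4 each). Rgs2, Ptk2b and Gng2 were also lower and Plcb3 was higher. With each of the 8 libraries left out in turn, the unadjusted limma p was under 0.05 in 1 of 8 fits for Plcb3, 4 for Ptk2b and 6 for Gng2. The most abundant, Stat3, was not called.

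The NF-kB pathway switches on many inflammatory chemokine genes. Of 26 genes listed for this pathway and for signals upstream of inflammatory chemokines, 4 were lower and 3 higher, 26.9% called against 16.4% of all genes tested. Tlr4, the lipopolysaccharide receptor, was the only gene of this list that passed the adjustment, at 8.19 ± 0.745 FPKM in the control libraries and 12.1 ± 0.835 FPKM in those labelled cKO (SD, n = 4 each, log2 fold change 0.51, limma adjusted p = 0.0337). It did not pass when any 1 library was left out (limma adjusted p from 0.0568 to 0.0977), and over the 17 alternative settings its limma adjusted p ran from 0.0107 to 0.107, with 6 of them under 0.05. Myd88 and Traf6, adaptors that act after it, were higher as well. Il1b, Nfkb1, Nfkb2 and Il17ra were lower, and Nfkbia, the most abundant, was not called. With 1 library left out, the unadjusted limma p was under 0.05 in 1 of 8 fits for Nfkb2, 3 for Il1b, 4 for Il17ra and 5 for Myd88.

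Of 19 chemokine-linked genes outside the naming rule, 18 were tested, 2 of them lower and 4 higher, 33.3% called against 16.4% of all genes tested. Cd74, the MHC class II invariant chain and a receptor of Mif, was lower (406 ± 62.0 FPKM in the control libraries, 271 ± 33.6 FPKM in those labelled cKO, SD, n = 4 each), as was Cmtm3. Mmp9, a protease that can trim chemokines, was higher at 2.75 ± 0.945 FPKM against 6.87 ± 3.03 FPKM. Cmtm6, Cmtm8 and Gpr35 were higher too, and Sdc4, the most abundant, was not called. The calls of Cmtm3 and Cmtm8 were kept in 3 of the 8 fits without 1 library and that of Gpr35 in 4.

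The promoters shown are those of the 4 CXC ligands that were called lower and had a window. Other lower genes with a window are not shown. Whether the 4 vary together was not tested. RefSeq promoter windows (GRCm38.p6), each from 250 bases before to 50 after the start, were matched by symbol to 27 of the 39 tested genes whose symbol stands on 1 row. They were searched on both strands for GAAANNGAA, the core of the interferon-stimulated response element, and for the NF-kB consensus motif. GAAANNGAA stood in 8.56% and the NF-kB motif in 8.46% of 32851 windows of the same length. TATAAA stood in 13.6% and GGCGCC in 11.9% of them. Among 7 lower genes with a window, 2 held GAAANNGAA and 3 the NF-kB motif, and among 19 genes not called, 2 and 4 did. TATAAA stood in 3 of the 7 lower genes and 8 of the 19 not called. GGCGCC stood in 1 of the 7 and 2 of the 19. The windows of Cx3cl1, Ccl8 and Cxcr6, also called lower, held neither GAAANNGAA nor the NF-kB motif and are not shown. The windows follow with matches to GAAANNGAA or the NF-kB motif in capitals. Adjoining capitals in Cxcl1, Cxcl3 and Cxcl10 are overlapping matches of the NF-kB motif. They lie at chr5:90890995-90891294 (plus strand) for Cxcl1, chr5:90785851-90786150 (plus) for Cxcl3, chr5:92348840-92349139 (minus) for Cxcl10 and chr13:56296502-56296801 (minus) for Cxcl14.
Cxcl1: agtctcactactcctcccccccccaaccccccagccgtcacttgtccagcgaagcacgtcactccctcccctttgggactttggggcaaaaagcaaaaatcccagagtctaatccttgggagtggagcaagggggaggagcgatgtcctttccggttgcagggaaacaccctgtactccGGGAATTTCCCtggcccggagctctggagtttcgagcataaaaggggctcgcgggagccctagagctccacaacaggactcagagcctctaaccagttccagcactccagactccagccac
Cxcl3: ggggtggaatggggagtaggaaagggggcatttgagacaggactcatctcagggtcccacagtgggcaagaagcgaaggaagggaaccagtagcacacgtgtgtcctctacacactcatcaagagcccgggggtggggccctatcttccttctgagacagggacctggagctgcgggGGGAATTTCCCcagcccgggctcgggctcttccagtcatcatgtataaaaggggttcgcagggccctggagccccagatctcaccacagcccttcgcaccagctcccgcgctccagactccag
Cxcl10: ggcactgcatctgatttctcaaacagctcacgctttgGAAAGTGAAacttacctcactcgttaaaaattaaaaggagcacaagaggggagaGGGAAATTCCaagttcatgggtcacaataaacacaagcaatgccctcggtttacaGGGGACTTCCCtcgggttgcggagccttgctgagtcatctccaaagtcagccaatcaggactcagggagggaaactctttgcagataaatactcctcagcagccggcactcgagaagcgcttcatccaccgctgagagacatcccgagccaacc
Cxcl14: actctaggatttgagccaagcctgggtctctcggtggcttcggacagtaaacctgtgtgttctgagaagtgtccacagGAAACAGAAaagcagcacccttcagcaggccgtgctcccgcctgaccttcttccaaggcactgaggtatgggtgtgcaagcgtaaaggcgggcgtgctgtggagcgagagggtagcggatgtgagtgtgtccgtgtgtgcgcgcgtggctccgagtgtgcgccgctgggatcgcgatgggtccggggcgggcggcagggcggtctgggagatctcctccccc
The windows of Cxcl1 and Cxcl3 each held the NF-kB motif and no GAAANNGAA, that of Cxcl10 held both, and that of Cxcl14 held GAAANNGAA alone. The window of Cxcl2, a gene that was not called, held the NF-kB motif, and that of Ccl9, which was higher, held it too.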

How the data were processed

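RNA-seq libraries of mammary epithelium from 4 control and 4 cKO mice were analysed from the deposited FPKM values, grouped by the sample titles. Before deposit the authors ran FastQC for read quality and Hisat2 for alignment (GRCm38), then computed FPKM per gene; the authors used DESeq2 at p under 0.05, and whether that p was adjusted is not given in the sources used here. The submitters' processing notes name StringTie 1.3.3b, featureCounts 1.5.0-p3 and build mm9, but 99.7% of 55480 gene identifiers shared with GENCODE M21 had its GRCm38 coordinates. FPKM times gene length (deposited as other information, in bases) gave whole reads for 100% of values above 0 (tolerance 0.01), 16123108 to 19896988 per library; the deposited FPKM already held size factors. Genes with a mean of at least 0.5 FPKM (15143) were fitted with limma 3.58.1 in R 4.3.3 on log2(FPKM + 1), with a pseudocount of 1, a mean-variance trend and no covariate, two-sided, and Benjamini-Hochberg adjustment over all of them. Fold changes on this scale understate those of low genes. Bmpr1a and genes under 0.5 FPKM were compared by exact permutation tests. Tables were made with Python 3.11.15, pandas 2.3.3 and numpy 2.4.6, figures with matplotlib 3.10.9. The fits were also run on simulated data, and those results are not given here.

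Members with a mean of at least 0.5 FPKM were named, except for an item that is not reported here. Values in every library were given for members with an unadjusted p under 0.05 and for the 5 most abundant ligands and receptors; of each list, called genes (at most 4 per direction by size) and the most abundant could be named. The members and lists were chosen with earlier results of these data known. Alternatives were another pseudocount, filters, scalings, limma-voom on recovered reads, the replicate block and each library left out.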

Additional observations from a re-analysis of the deposited data

Results flagged for a closer look

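Libraries were compared within each group of 4 by Dixon's test of the gap to the nearest library over the range at its 95% critical value, for the tested members, Bmpr1a, the list sums and the named list genes. Of 266 groups 12 had a library far from the others, and chance gives about 1 in 20. Among chemokine genes, Cxcl2 was 320 FPKM in control replicate 4 (others 228 to 241), Ccl20 49.6 FPKM in cKO replicate 4 (others 22.7 to 26.5) and Xcl1 2.88 FPKM in cKO replicate 4 (others 0.464 to 0.693). Ccr7 was 16.9 FPKM in cKO replicate 2 (others 11.2 to 11.99) and Cxcl13 2.48 FPKM in cKO replicate 1 (others 0.796 to 0.896). Among markers, the mast cell and eosinophil sum was 61.7 FPKM in control replicate 4 (others 20.97 to 24.6), with Mcpt4 at 25.3 FPKM (others 8.07 to 10.6). The adipocyte sum was 101 FPKM in cKO replicate 1 (others 134 to 135). Tyrobp was 11.5 FPKM and Lyve1 0.733 FPKM in cKO replicate 3 (others 20.3 to 21.6 and 1.52 to 1.61). Cd209a was 1.42 FPKM in control replicate 1 (others 1.09 to 1.13) and Wap 323 FPKM in cKO replicate 4 (others 128 to 148). No cause was tested.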

How the results depend on the processing

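Of the 13 members with an unadjusted limma p under 0.05, 10 kept it in every alternative that gave a value; Cxcl1, Ccl21a and Cxcr5 did not. Ccl21a lost it with the replicate block too; Cxcl2, not called, gained it there, by limma and by limma-voom. Of 51 called list genes that could be named, 25 kept it in every alternative with a value. The number of members with an unadjusted p under 0.05 lay between 11 and 16 over all alternatives. The number with an adjusted limma p under 0.05, 2 as reported, was 0 without a filter, 4 by limma-voom (recovered reads), 6 when limma-voom also had the replicate block, and 0 whichever library was left out. Over all genes the adjusted count, 135 as reported, was 10 without a filter, 252 by limma-voom, 680 when it also had the replicate block, and 0 (without control replicate 4) to 78 with 1 library left out; the cause was not tested. The unadjusted count over all genes, 2480 as reported, lay between 2042 and 3389. TPM scaling moved the median of all genes by -0.051 (log2) and the share of higher among the calls from 54% to 32.3%; the members' 12 lower and 1 higher calls were the same number under TPM.

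Same-numbered control and cKO libraries correlated at 0.080 to 0.137 in their deviations. Within replicates 1 and 2 or 3 and 4, libraries of different number correlated at 0.087 to 0.178. Across these sets the range was -0.210 to -0.072. Same-numbered libraries were thus no closer than others of their set, and the numbers were not taken to pair the mice. With the replicate block, 50 genes and 0 members had an adjusted p under 0.05, 3124 genes and 14 members an unadjusted one, and the Bmpr1a difference was 1.01 FPKM. A block of replicates 1 and 2 against 3 and 4, chosen after seeing the data because these sets deviated together, gave 442 genes and 4 members with an adjusted p under 0.05, and Ccl21a and Cxcr5 then lost their unadjusted calls. The Bmpr1a difference ran from 0.544 to 1.52 FPKM with 1 library left out. With 1 library left out, the log2 fold change of Ccl2 ran from -0.19 to 0.03 (above 0 without control replicate 4), that of Ccl7 from -0.19 to 0.03 (above 0 without control replicate 4 and, at 0.01, without cKO replicate 3) and that of Ccr1 from -0.05 (without cKO replicate 2) to 0.21. Cxcr5 has no value without control replicate 1 or 3 or at a mean of at least 1 FPKM, nor Ccl24 at the latter, being under the filter. Depth limits the 26 members under 0.5 FPKM.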
